A study of Homo sapiens with 8 samples.

Results

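The comparison described here was that of HCT116 cells given a synthetic miR-8073 mimic with HCT116 cells given a microRNA negative control sequence, over all genes on the array. It rested on 6 of the 8 arrays of the series, 3 with the mimic and 3 with the negative control, chosen by their labels. The other 2 arrays held mock cells, which received no duplex, and served to place each change. HCT116 is an established human colorectal cancer cell line, and all 3 groups shared it. RNA of each sample was labelled with a single dye, Cy5, and hybridized to a 3D-Gene chip with 25K oligos. The model is limited to 1 cell line and to a transfected duplex, and no source used here gives the negative control's sequence. The labels gave no dose, slide, date or batch for these arrays, and the study states 2 different times after transfection. Nothing said whether replicates came from separate cultures. The p-values then reflect no more than the spread among these samples, and that spread may be technical.

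A microRNA is a short RNA that guides an Argonaute protein to messenger RNAs, mostly through pairing of its seed, the bases 2 to 8 from the 5′ end. Pairing in the 3′ untranslated region of a messenger RNA leads to repression of translation and to shortening of the poly(A) tail and decay. A mimic is a synthetic duplex that loads its guide strand into the same machinery. A negative control duplex enters that machinery too, with a sequence of its own, whereas mock cells carry none, so a difference between mimic and negative control can lie on either side of the mock level.

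The mature miR-8073 is shown because the mimic carries it, with its seed in capitals. It was taken from RefSeq (GRCh38.p14) and lies on the plus strand of chr13:110340968-110340989.
hsa-miR-8073: aCCUGGCAgcagggagcgucgu
The reverse complement of the seed, which a fully paired seed site in a messenger RNA would hold, is UGCCAGG. Transcript sequences were not used here, so no site was counted.

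Of 24448 probes kept, 12898 stood above the blank spots on at least 2 of the 8 arrays and were tested, and they represented 10255 named genes. Between 47.26% and 52.27% of probes lay above background on each array. The Pearson correlation of log2 signals, across probes that are not independent replicates, was 0.994 to 0.996 among mimic arrays, 0.995 to 0.996 among negative control arrays and 0.993 between the mock arrays. Mimic arrays correlated with negative control arrays at 0.983 to 0.989 and with mock arrays at 0.987 to 0.992. Mock arrays correlated with negative control arrays at 0.986 to 0.993, and the 2 mock arrays divided. Mock array 1 correlated with mimic arrays at 0.9907 to 0.9919 and with negative control arrays at 0.9862 to 0.9895. For mock array 2 the ranges were 0.9873 to 0.9914 with mimic arrays and 0.9911 to 0.9930 with negative control arrays. The colorectal epithelial identity of the cells was borne out in part. Of 10 epithelial markers on the array 7 were above background on every array, among them KRT18 with signals of 3610 to 5460 and EPCAM with 1200 to 1610, and no tested marker was called. The intestinal markers CDX2 and KRT20 were dim, at 4.36 to 7.93 and 4.8 to 8.69, and LGALS4 was above background on no array. Of 15 markers of fibroblasts, endothelium and leukocytes, 9 were at background on every array, including COL1A1, VWF, PTPRC and CD3E. The 4 above it on every array were CD79A, DCN, PDGFRB and KDR. CD79A had signals of 79.8 to 140, and DCN, a fibroblast marker, had 44.2 to 59.6. The fibroblast marker PDGFRB and the endothelial marker KDR were dimmer, at 5.71 to 17.4 and 5.84 to 12.1. The summed signal of the 15 was 228.1 to 237.9 with the mimic, 177.2 to 231.1 with the negative control and 189.1 to 201.8 in mock. Only 4 of the 15 were tested, and none of the 4 was called.

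With the mimic, 2016 of the 12898 probes differed from the negative control at an adjusted p below 0.05 (15.6%), 1008 of them lower and 1008 higher (7.82% each). The called probes belonged to 1807 genes, and 136 called probes had no gene name. Changes were small for most. The median absolute log2 change was 0.366 for lower probes, within 0.117 to 2.71, and 0.32 for higher ones, within 0.115 to 1.8. Signals are given after background correction and log2 changes on the scale log2(signal + 50), which understates the change of a dim gene. The number of calls depended on the scaling. Median centring in place of quantile normalization gave 949 calls, 320 lower and 629 higher, so that 33.7% were lower, against 50% by quantiles. Without negative control array 1 the calls numbered 1079 and without array 3 1221, and without mimic array 1 the higher calls numbered 652. With background taken from the pixels that ring a spot, limma called 0 probes, and 366 had an unadjusted p below 0.05. That ring carried the pattern of its own spot, with a correlation of log intensities of 0.924 to 0.987 over the spots of an array, and the median standard deviation within groups was 0.117, against 0.0737 with the blank spots as background.

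Against mock, 487 probes were called for the mimic (3.78%), 330 lower (2.56%) and 157 higher (1.22%). The negative control was itself apart from mock at 463 probes (3.59%), 287 lower (2.23%) and 176 higher (1.36%). The 3 comparisons share arrays and are not independent, and mock had 2 arrays, so a probe that was not called against mock was not shown to equal it. Each probe called between mimic and negative control was therefore marked by where it stood to mock. A probe on which the mimic was also called against mock in the same direction was marked as mimic apart, whether or not the negative control was called against mock. A probe on which the negative control was called against mock in the opposite direction, and the mimic was not called against mock, was marked as control apart, since the negative control arrays and not the mimic arrays had then left the mock level by this test. Whether the sequence of the control duplex caused such a shift was not tested.

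The marks were spread unequally over the directions. Among the 1008 lower probes 260 were mimic apart (25.8%) and 109 control apart (10.8%). Among the 1008 higher probes 100 were mimic apart (9.92%) and 208 control apart (20.6%). On 17 of the 260 lower mimic apart probes the negative control was also called against mock, on the opposite side from the mimic. On 10 more it was called on the same side as the mimic. Among the 100 higher mimic apart probes these counts were 1 and 1. For 638 lower and 697 higher probes neither group was called against mock in that way, and on 4 more mock lay outside both. A reading without a threshold had the same order. Both mock arrays lay nearer to the mimic mean for 292 lower probes (29%) and 440 higher probes (43.7%). They lay nearer to the negative control mean for 418 lower (41.5%) and 276 higher probes (27.4%). Among probes that were not called, the shares were 32.3% nearer to the mimic and 28.29% nearer to the negative control. The 29% of lower probes and the 27.4% of higher probes thus lay near the shares of probes not called. On a line with the negative control at 0 and the mimic at 1, mock had a median position of 0.442 for lower probes, 0.61 for higher probes and 0.585 for probes that were not called. The median for higher probes thus lay near that of probes not called. The quartile ranges overlapped, at 0.131 to 0.739 for lower, 0.323 to 0.878 for higher and -0.247 to 1.39 for probes not called.

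The inequality was steeper among the strongest changes. Of 35 probes lower by more than 1 on the log2 scale, 28 were mimic apart and 1 control apart. Of 12 probes higher by more than 1, 1 was mimic apart and 10 were control apart. Beyond 0.5, 118 of 283 lower probes were mimic apart (41.7%) and 31 control apart (11%), and of 186 higher probes 24 were mimic apart (12.9%) and 92 control apart (49.5%). The marks were sensitive to single arrays. Without mock array 2, 111 probes were mimic apart (95 lower, 16 higher) and 270 control apart (107 lower, 163 higher). Without mock array 1, 242 were mimic apart (158 lower, 84 higher) and 48 control apart (8 lower, 40 higher). Without negative control arrays 1, 2 and 3 in turn, 83, 171 and 89 probes were control apart, and without mimic array 2, 208. The mimic apart probes numbered 236 and 199 without negative control arrays 1 and 3, and 222 and 172 without mimic arrays 1 and 3. When each of the 8 arrays was left out in turn, 72 lower and 7 higher probes kept the mimic apart mark every time, and 6 lower and 33 higher probes kept the control apart mark every time.

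**Figure D1:**
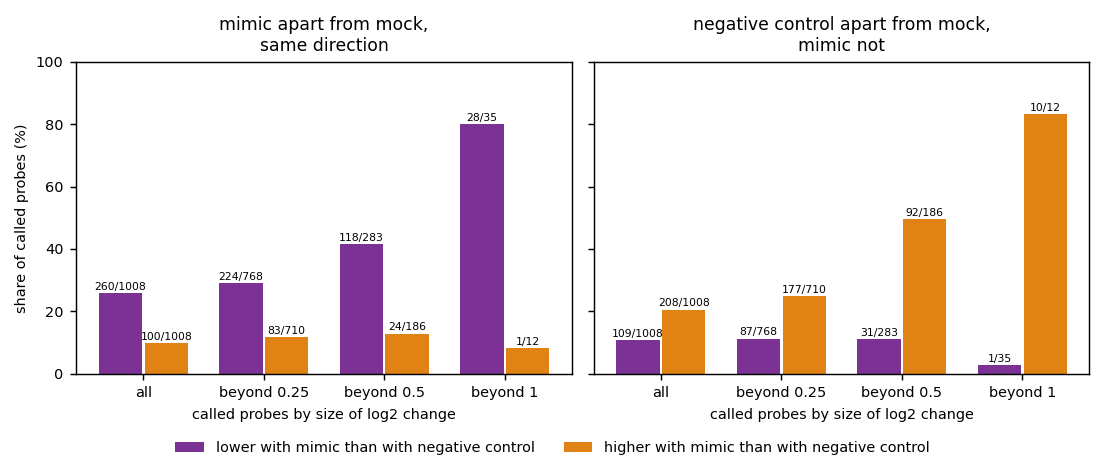
Share of called probes (%) that were mimic apart (left) or control apart (right), for all called probes and for those beyond a log2 change of 0.25, 0.5 and 1, lower and higher with the mimic than with the negative control; numbers above bars are counts. Beyond 1, 28 of 35 lower probes were mimic apart and 10 of 12 higher probes were control apart.

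Genes that fell with the mimic against both the negative control and mock were ranked by their change, outside the study's 5 targets and 42 further genes left out by rule, and the 10 lowest had varied roles. ANAPC15 (probe opHsV0400000093) encodes a small subunit of the anaphase-promoting complex, the ubiquitin ligase that drives exit from mitosis. Its signal was 41.7, 37.2 and 38.7 with the mimic, against 132.2, 136.5 and 173 with the negative control and 149.7 and 152.5 in mock. The mimic arrays lay far below all 5 others, which overlapped, and the mimic fell by 1.14 ± 0.08 (SE) on the log2 scale relative to the negative control (adjusted p = 0.000342) and by 1.17 relative to mock (adjusted p = 0.0014). PYCR1, the mitochondrial reductase that completes proline synthesis, had 75.2, 75.8 and 79.6 with the mimic, 244.6, 209.2 and 214.6 with the negative control and 221.6 and 255.1 in mock. The mimic level was 2.9-fold below that of the negative control (log2 change -1.10, adjusted p = 0.00028), and both of its probes were called. ANXA5, a calcium-dependent binder of membrane phospholipids, had 670.6, 678.5 and 636.4 with the mimic, 1695, 1483 and 1355 with the negative control and 1427 and 1589 in mock. The negative control and mock arrays of ANXA5 interleaved, with a log2 difference of -0.00 between them, and the mimic fell by 1.13 on the log2 scale against each.

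MARCKSL1, an actin-binding protein of the MARCKS family, had 103.8, 90.3 and 94.9 with the mimic, 238, 284.4 and 268 with the negative control and 224.7 and 261.3 in mock. PCBD1, which recycles the pterin cofactor of aromatic amino acid hydroxylases and binds the transcription factor HNF1, had 220.2, 224 and 215.5 with the mimic, 485.6, 530 and 570 with the negative control and 614.9 and 448.4 in mock. In both genes the negative control and mock arrays overlapped and the mimic arrays lay below all of them, with log2 changes of -1.10 in each. THAP4, a zinc finger protein with a heme-binding domain, had 120.6, 121.3 and 131.9 with the mimic, 300.9, 323.8 and 331.5 with the negative control and 268.8 and 311.1 in mock (log2 change -1.08, adjusted p = 0.000252). NDUFAF3, an assembly factor of respiratory complex I, had 311.7, 299.7 and 267.4 with the mimic, 705, 672.1 and 756.9 with the negative control and 578.7 and 563.9 in mock. Here mock lay between, with the mimic lower than mock by 0.86 and the negative control 0.29 above it on the log2 scale, and the difference of the negative control from mock did not pass (adjusted p = 0.0674). These 7 genes kept the mimic apart mark without any 1 of the 8 arrays.

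The marks of the 3 other lower genes named by the same rule were less firm. PSMG3, a chaperone of proteasome assembly, had 259, 338.4 and 364.8 with the mimic, 841.3, 732.5 and 761.9 with the negative control and 518.3 and 769.5 in mock. BAG3, a co-chaperone of HSP70, had 368.1, 274.8 and 342 with the mimic, 868.3, 668.3 and 799 with the negative control and 533 and 572.2 in mock. Their adjusted p against mock was 0.039 for PSMG3 and 0.0376 for BAG3, and they kept the mark in 1 and 2 of the 8 fits with an array left out. CDCA7L, a nuclear partner of MYC, fell by 1.09 against the negative control and by 0.77 against mock and kept the mark in 6 of the 8.

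Genes that rose against both the negative control and mock did so by less. The 6 named by the same rule, with the study's targets and the 42 further genes left out, were ZNF226, CFL2, RSRP1, BPNT2, CLK1 and DAP, with log2 changes of 0.52 to 0.60 against the negative control and 0.42 to 0.69 against mock. ZNF226, a zinc finger protein, had 67.8, 63 and 65.9 with the mimic, 31.5, 30.6 and 25.3 with the negative control and 39.7 and 26.8 in mock. CFL2, a cofilin that severs actin filaments, had 177.1, 209.8 and 171.4 with the mimic, 118.2, 111.7 and 107.5 with the negative control and 116.4 and 110.9 in mock. In both genes the mimic arrays lay above the others, and the negative control and mock arrays overlapped. CLK1, a kinase of SR splicing factors, had 134.5, 154 and 136.3 with the mimic, 79.3, 83.1 and 74.7 with the negative control and 107.4 and 79.7 in mock. Its call against mock (adjusted p = 0.0443) was lost in 7 of 8 fits with an array left out, as was that of DAP, and the second probe of DAP was not called against the negative control (adjusted p = 0.0721). None of the 6 kept the mark in all 8 fits, and CFL2 kept it in 7.

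The largest rises against the negative control were of another kind, with mock arrays close to the mimic. PDCD6 (ALG-2), a calcium sensor of vesicle transport, had 953.1, 675.1 and 882.9 with the mimic, 200.2, 231.7 and 178.9 with the negative control and 724.1 and 655.7 in mock. The mimic and mock arrays overlapped and the negative control arrays lay apart. On the log2 scale the mimic exceeded the negative control by 1.80 ± 0.13 (SE, adjusted p = 0.000421) and mock by 0.25 (adjusted p = 0.426). The difference of the negative control from mock was -1.55 (adjusted p = 0.00552). CYRIB, which binds RAC1 and limits its action on the actin cytoskeleton, had 683.1, 623.6 and 666.2 with the mimic, 217.6, 189.3 and 170.1 with the negative control and 554.8 and 428.3 in mock. The mock arrays of CYRIB lay a little below the mimic arrays and far above the negative control arrays.

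MTAP, which salvages methylthioadenosine, had 277.6, 250.2 and 304.2 with the mimic, 79.8, 103.3 and 93.6 with the negative control and 271.5 and 297.5 in mock. RFK, the kinase that makes flavin mononucleotide from riboflavin, had 168.1, 166.3 and 143.6 with the mimic, 59.2, 49.4 and 52.8 with the negative control and 151.8 and 167 in mock. ITPRID2 had 1031, 1090 and 940.9 with the mimic, 458.8, 402.1 and 423.8 with the negative control and 920.9 and 1261 in mock. In these 3 genes the ranges of mimic and mock overlapped, with log2 differences between their means of -0.03, -0.00 and -0.08, whereas the negative control was lower than mock by 1.24, 1.01 and 1.24. The mock arrays of ITPRID2 were far apart, 1 below and 1 above all of its mimic arrays. Both probes of RFK and both of ITPRID2 were called higher. RBPJ, the nuclear effector of Notch signalling, had 300.5, 310.1 and 260.6 with the mimic, 108.1, 90.5 and 107.1 with the negative control and 245.1 and 272 in mock. CNOT7, a deadenylase of the CCR4-NOT complex that miRNA silencing recruits, had 385.8, 412.4 and 410.2 with the mimic, 168.3, 164.4 and 192.9 with the negative control and 357.9 and 368.6 in mock. The mimic was called against mock for neither, with adjusted p of 0.441 for RBPJ and 0.318 for CNOT7. MCFD2, a partner of the cargo receptor LMAN1, also belonged to this set, with a log2 change of 1.08 against the negative control and -0.77 for the negative control against mock, and it kept the mark in 5 of 8 fits with an array left out. The other 7 kept it in all 8.

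**Figure D2:**
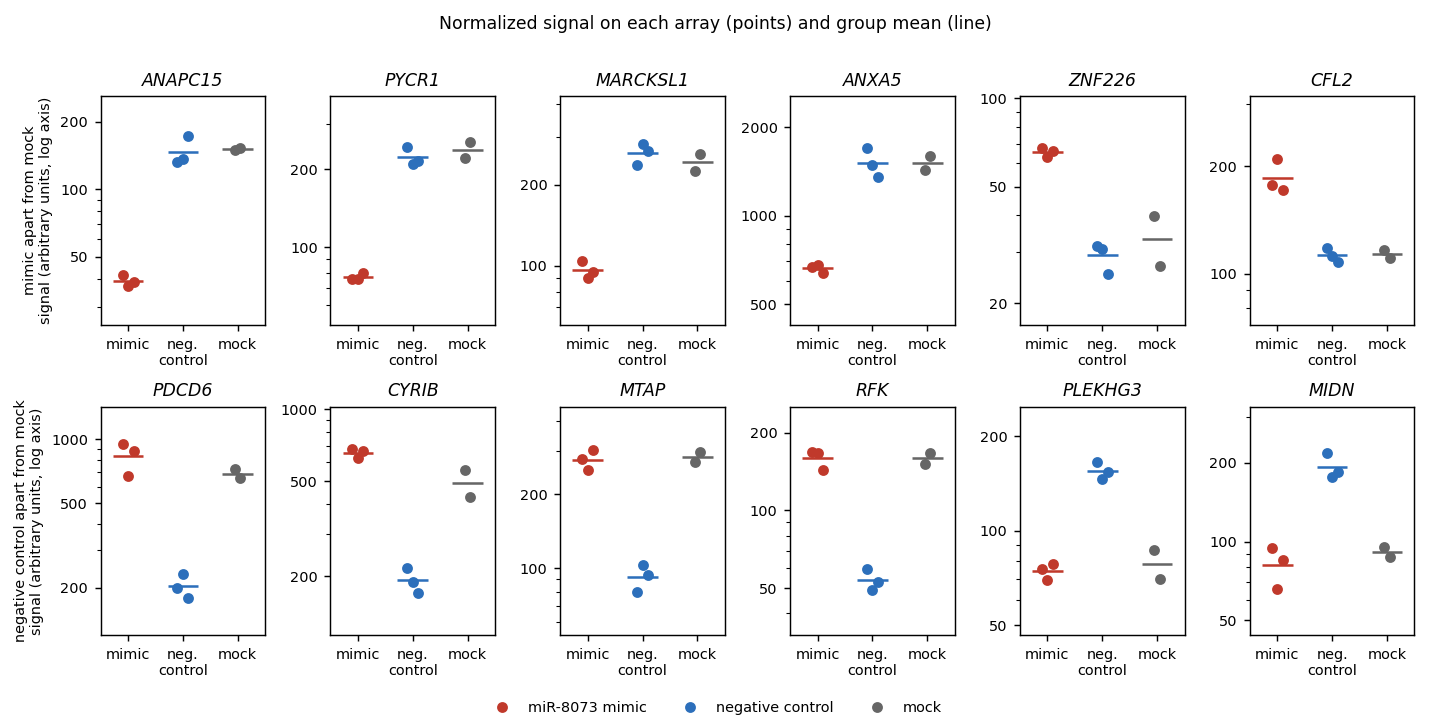
Normalized signal in arbitrary units on a log axis, 1 point per array and a line at the group mean, for miR-8073 mimic, negative control and mock arrays. In the upper row the mimic arrays lie apart from the other 5 (ANAPC15 at 37.2 to 41.7 with the mimic), and in the lower row the negative control arrays do (PDCD6 at 178.9 to 231.7 with the negative control).

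Lower genes with the control apart mark were fewer and less stable. PLEKHG3 had 75.4, 69.6 and 78.3 with the mimic, 165.9, 146.1 and 154.2 with the negative control and 86.5 and 70 in mock, and was the only one of the 8 named to keep the mark in all 8 fits with an array left out. MIDN, which leads nuclear proteins to the proteasome, had 94.1, 65.8 and 85.2 with the mimic, 219, 176.1 and 184.4 with the negative control and 95.3 and 87.3 in mock. For both, the negative control arrays were high and the mimic and mock arrays overlapped. CSTB, a cystatin that inhibits cathepsins, had 1224, 1527 and 1505 with the mimic, 3028, 2565 and 2804 with the negative control and 1210 and 1834 in mock (negative control against mock, adjusted p = 0.0406). FAM83H, a protein that organizes keratin filaments, had a log2 change of -0.71 against the negative control and 0.12 against mock. FRMD8, PDLIM2, CARHSP1 and NHSL3 lay between, with log2 changes of -1.27, -0.94, -0.85 and -0.73 against the negative control and of -0.57, -0.38, -0.30 and -0.30 against mock, where none passed (adjusted p of 0.0636, 0.06, 0.17 and 0.0645). FRMD8 kept the mark in 0 of the 8 fits, and the second probe of PDLIM2 was not called (log2 change -0.08, adjusted p = 0.316).

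A few genes, picked after their values were seen, had mock in the middle or outside. ID3, an inhibitor of helix-loop-helix transcription factors, had 182.8, 182.4 and 193.8 with the mimic, 401.9, 424.8 and 479.3 with the negative control and 310.8 and 282.4 in mock, so that the mimic was 0.55 lower than mock and the negative control 0.48 higher, both called. NINJ1, a mediator of plasma membrane rupture, and CSRP2, a LIM protein, were likewise split, with log2 changes of -1.01 and -0.82 against the negative control and of -0.67 and -0.41 against mock. BOD1, a protein of chromosome biorientation, had 329.2, 332.9 and 349 with the mimic, 192.9, 211.6 and 212.1 with the negative control and 453.8 and 490.8 in mock on one probe. There mock exceeded both, and the second probe of BOD1 had the same order. MET, the receptor of hepatocyte growth factor, was dim with the same order, at 22, 20.4 and 19.5 with the mimic, 5.08, 6 and 5.93 with the negative control and 30.8 and 30 in mock.

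Genes of the G1/S transition and of DNA replication fell together. Of the 49 tested, 34 were lower with the mimic than with the negative control and 1 was higher, with a median log2 change of -0.37, beside 8.67% lower and a median of 0.00 over all 10255 genes. Of the 34, 24 were mimic apart and 0 control apart, and TK1, the thymidine kinase of S phase, had the lowest log2 change, -2.71. The median was -0.40 against mock and -0.03 for the negative control against mock. PCNA, the sliding clamp of DNA polymerases, had 1212, 1203 and 1143 with the mimic, 1714, 2042 and 2101 with the negative control and 2759 and 1695 in mock. CHAF1B, a subunit of the chromatin assembly factor, had 98.3, 85.7 and 75.3 with the mimic, 185.7, 154.9 and 161.7 with the negative control and 140.7 and 189.1 in mock. For both the mimic arrays were lowest, and for PCNA the call against mock was missed (adjusted p = 0.0545), with mock arrays far apart. The call of PCNA against the negative control was lost whenever 1 of the 6 mimic and negative control arrays was left out. PRIM1, the catalytic subunit of primase, fell by 0.63, and MCM4, MCM7 and MCM2 of the replicative helicase by 0.56, 0.54 and 0.50, each mimic apart. UHRF1, which brings the maintenance DNA methyltransferase to hemimethylated DNA, had 191.2, 154.3 and 175.9 with the mimic, 295.6, 243.7 and 285 with the negative control and 295.9 and 305.3 in mock. RPA1, the large subunit of the single-strand DNA binding complex, was the exception, with 279.3, 222.7 and 212.6 with the mimic, 158.6, 168.3 and 175.2 with the negative control and 234.3 on both mock arrays (log2 change 0.40, adjusted p = 0.0192, a call lost without negative control array 1 or 2). Of the 34, 13 kept the call with median centring, 9 with the authors' log2 values, 16 with a plain t-test and 0 with the ring background. When single arrays were left out, 26 to 33 kept it. The median stayed below 0 in every setting and was -0.175 with the ring background.

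**Figure D3:**
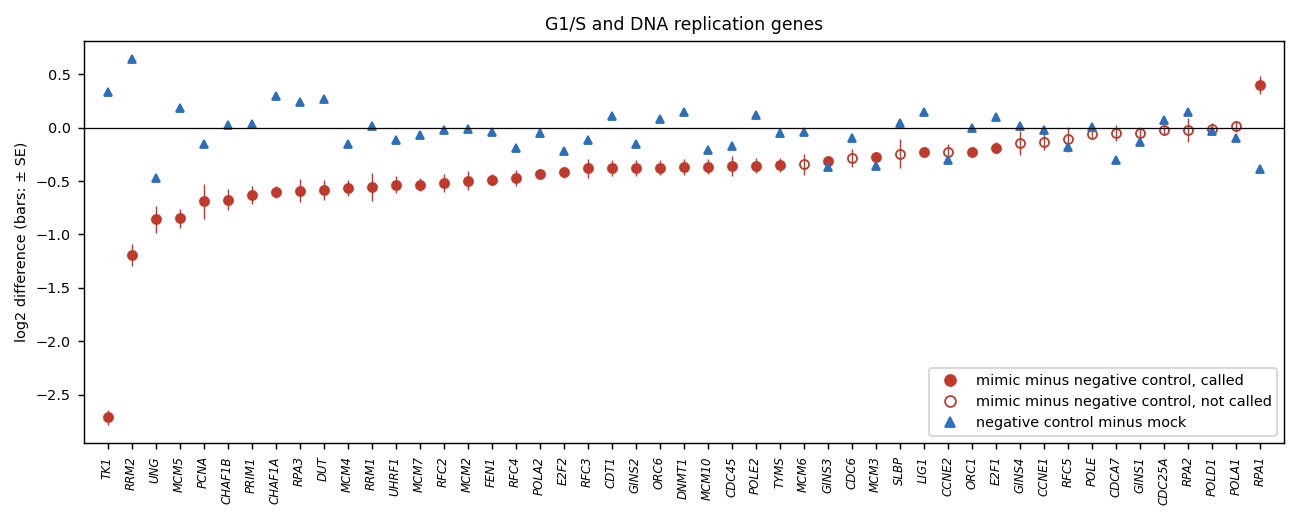
Log2 difference of each of the 49 tested G1/S and DNA replication genes, ordered by the mimic minus negative control difference (circles with SE bars, filled where called), beside the negative control minus mock difference (triangles). The circles lie below 0 for most genes, with 34 called lower, and the triangles lie on both sides of 0, with a median of -0.03.

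E2F factors control many G1/S genes, so the promoters, 250 bases before to 50 after each gene start in RefSeq (GRCh38.p14), were searched for the letters TTTCGCGC, TTTGGCGC and TTTCCCGC on both strands. A promoter was matched for 8445 of the 10255 genes, and 4.78% of them held such letters. Among lower genes that were mimic apart the share was 14.5% (29 of 200), and 10.7% (19 of 178) outside the G1/S list. It was 1.45% (1 of 69) for higher genes that were mimic apart. For control apart genes it was 6.82% (6 of 88) among lower and 3.29% (5 of 152) among higher ones. In the G1/S list it was 53.5% (23 of 43), and over all 27305 promoters of that length 2.79%. Letters of the cell cycle homology region, the NF-Y box and a sterol element were searched in the same promoters. Among lower mimic apart genes their shares were 11.5%, 37.5% and 0%, beside 9.99%, 36.9% and 0.45% over all genes. Among higher mimic apart genes they were 8.7%, 49.3% and 0%, and in the G1/S list 2.33%, 53.5% and 0%. In the lists described below, G2/M promoters had 60.0%, 71.4% and 0%, and those of cholesterol synthesis 5.56%, 83.3% and 5.56%. Stretches around the E2F match are shown for 6 G1/S genes that were lower and mimic apart, as examples of what the E2F shares count. The letters of the first match in each promoter are in capitals on the strand of the gene. The promoters of MCM7 and MCM2 each held 2 matches, and in MCM2 the second overlaps the end of the capitals. The stretches lie at chr19:4909467-4909514 (plus) for UHRF1, chr7:100101557-100101604 (minus) for MCM7, chr3:127598393-127598440 (plus) for MCM2, chr11:65261889-65261936 (plus) for POLA2, chr1:23531248-23531295 (minus) for E2F2 and chr16:85688958-85689005 (minus) for GINS2.
UHRF1: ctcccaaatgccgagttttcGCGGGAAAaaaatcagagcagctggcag
MCM7: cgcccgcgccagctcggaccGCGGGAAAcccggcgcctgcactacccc
MCM2: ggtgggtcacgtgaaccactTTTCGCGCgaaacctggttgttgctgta
POLA2: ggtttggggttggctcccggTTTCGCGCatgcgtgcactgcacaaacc
E2F2: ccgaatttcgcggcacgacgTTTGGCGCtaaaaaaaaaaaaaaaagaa
GINS2: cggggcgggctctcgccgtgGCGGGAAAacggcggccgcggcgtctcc
A match is a run of letters and not a shown site of binding, and the absence of a match says nothing of the factor.

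**Figure D4:**
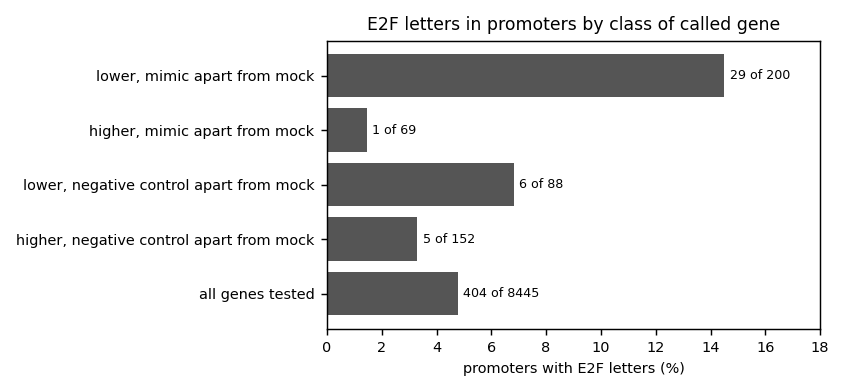
Share of promoters (%) that held the E2F letters, for called genes by direction and mark and for all genes tested; numbers beside bars give promoters with a match of promoters searched. Lower genes that were mimic apart had 29 of 200, against 404 of 8445 over all genes tested.

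Mitotic genes moved less. Of 44 tested genes of G2/M, 13 were lower (29.5%, beside 8.67% over all genes) and 1 higher, with a median log2 change of -0.19, of -0.20 against mock and of -0.01 for the negative control against mock, and with the ring background the median against the negative control was 0.02. PIMREG, a mitotic protein that binds CALM (PICALM), had 26, 29.9 and 25.2 with the mimic, 117.3, 84.7 and 94.9 with the negative control and 131.7 and 92.1 in mock, a signal 3.66-fold lower than with the negative control. PTTG1, the securin that holds separase in check, had 467, 786.4 and 707.2 with the mimic, 1518, 1499 and 1351 with the negative control and 669.8 and 1015 in mock. Its mock arrays overlapped the mimic, and it was called against mock for neither group. The 1 higher gene, the spindle checkpoint protein BUB3, was control apart, at 1469, 1509 and 1336 with the mimic, 1161, 995.7 and 1051 with the negative control and 1453 and 1351 in mock.

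Proteasome genes had a median log2 change of 0.25 over 35 genes against the negative control, with 0.06 for the mimic against mock and -0.20 for the negative control against mock. Of its genes 6 were called higher (17.1%, beside 8.13% over all genes) and 2 lower (5.71%, beside 8.67%). PSMC6, an ATPase of the base, had 232.7, 229.3 and 240.9 with the mimic, 122.3, 151.8 and 118.2 with the negative control and 256 and 220.8 in mock. PSMA4, a subunit of the outer ring, had 2327, 2063 and 2034 with the mimic, 1410, 1520 and 1357 with the negative control and 2069 and 2074 in mock. In both the negative control arrays alone stood low, and both were control apart. The 2 lower subunits went the other way. PSMA1 had 622.4, 720.1 and 711.4 with the mimic, 1012, 936.6 and 963.5 with the negative control and 1351 and 1156 in mock, and PSMB2 fell by 0.35 against the negative control and by 0.31 against mock, both mimic apart.

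Chaperones of the endoplasmic reticulum and genes of the unfolded protein response had 6 of 24 higher (25%, beside 8.13% over all genes) and 0 lower, with medians of 0.14 against the negative control, 0.01 against mock and -0.08 for the negative control against mock. Of the 6, 3 kept the call with median centring, 2 with the authors' log2 values and 0 with a plain t-test or the ring background. When single arrays were left out, 4 to 6 kept it. PDIA4, a disulfide isomerase, had 384.3, 329.4 and 398.2 with the mimic, 242.6, 231.8 and 194.1 with the negative control and 425.4 and 425.6 in mock. CANX (calnexin) and the stress sensor ATF6 had the same order of groups, with log2 changes of 0.46 and 0.33 against the negative control and of -0.60 and -0.37 for the negative control against mock, and all 3 were control apart. SEC61B of the translocation channel was the 1 member that was mimic apart, higher by 0.35 against both. Among cytosolic heat shock proteins and co-chaperones 8 of 28 were higher and 4 lower (42.9% called, beside 16.8% over all genes), with medians of 0.06 against the negative control and -0.06 against mock. Of the 8 higher ones 0 were mimic apart and 1 was control apart. Their call stayed for 4 with median centring, 1 with the authors' log2 values, 2 with a plain t-test and 0 with the ring background. When single arrays were left out, 3 to 7 of the 8 kept it. CHORDC1, a co-chaperone of HSP90, had 689.2, 712.4 and 710.6 with the mimic, 448, 513.9 and 444.7 with the negative control and 604.5 and 458.8 in mock. HSPA4 had 131.9, 131.7 and 105.9 with the mimic, 74.6, 81.8 and 80.4 with the negative control and 151.5 and 110.3 in mock. FKBP4, an HSP90-binding immunophilin, was lower by 0.56, and HSF1, the heat shock transcription factor, was above background on 1 of 3 mimic arrays at 4.81, 2.31 and 2.91, against 31.6, 26 and 24.2 with the negative control and 25.2 and 22.4 in mock (log2 change -0.53).

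Of 58 tested cytosolic ribosomal protein genes 5 were higher and 4 lower, or 15.5%, beside 16.8% over all genes, and 3 of the higher ones, RPS3A, RPS4X and RPL34, were control apart with log2 changes of 0.42, 0.44 and 0.45. Ribosomal protein genes have many processed pseudogenes, so their probes may cross-hybridize. Of 15 aminoacyl-tRNA synthetases 2 were higher and 1 lower (20%). TARS1, the threonyl-tRNA synthetase, had 143, 116.5 and 114.4 with the mimic, 67.7, 73.1 and 71.7 with the negative control and 149.3 and 144.9 in mock, and was control apart, and WARS1 was higher by 0.73 without a call against mock for either group, and its call against the negative control was lost whenever 1 of the 6 mimic and negative control arrays was left out.

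Some cholesterol synthesis genes rose, also against mock. Of 21 genes tested 6 were higher (28.6%, beside 8.13% over all genes) and 1 lower, with medians of 0.18 against the negative control, 0.15 against mock and -0.07 for the negative control against mock, and 4 of the 6 were mimic apart. With the ring background the median against the negative control was 0.00233. Fatty acid synthesis had 0 of 15 higher and 1 lower (6.67% called, beside 16.8% over all genes), with a median of 0.01. In the ATF4 and amino acid list 2 of 26 were lower and 1 higher, or 11.5% called, a share below that over all genes. The 2 lower ones were mimic apart: PYCR1, given above, and SHMT2, the mitochondrial serine hydroxymethyltransferase. SHMT2 had 299.7, 301.4 and 315.7 with the mimic, 433.9, 500.9 and 456.8 with the negative control and 645.7 and 643.2 in mock, so that the negative control too lay below mock (adjusted p = 0.013). DDIT3 (CHOP), a stress-induced transcription factor, went up by 0.62 against the negative control, at 155.3, 171.4 and 188 with the mimic, 79.7, 91.1 and 112.8 with the negative control and 140.2 and 122.2 in mock.

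Glycolysis and hypoxia genes had 3 of 30 lower and 2 higher and respiratory chain genes 5 of 46 lower and 1 higher, with medians of 0.06 and 0.03, and none of these 11 genes was mimic apart. Called were 16.7% and 13%, beside 16.8% over all genes. ADM (adrenomedullin) was lower by 0.55 than with the negative control and COX5A of cytochrome oxidase by 0.41, and their log2 differences from mock were -0.03 and 0.03. BNIP3, a mitophagy receptor, was higher by 0.60 and SDHD of complex II by 0.23, and SDHD was control apart. Of the 8 fits with an array left out, ADM and SDHD lost their call in 5, BNIP3 in 6 and COX5A in 4.

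Of 23 p53 targets 3 were higher and 2 lower, or 21.7% called, near the 16.8% over all genes. CDKN1A, the CDK inhibitor p21, had 473.7, 509.2 and 622.9 with the mimic, 409.5, 332.1 and 428.3 with the negative control and 354.2 and 356.9 in mock, with a call against the negative control only (adjusted p = 0.0486), which was lost in 7 of 8 fits with an array left out, all but the one without mimic array 1, and with median centring and the authors' log2 values. CCNG1 (cyclin G1) was higher by 0.47, while GDF15 and MDM2, the ubiquitin ligase of p53, were lower by 0.54 and 0.47, and their mock arrays lay nearer to the mimic. The calls of GDF15 and MDM2 were each lost in 5 of the 8 fits. Of 21 interferon and RNA sensing genes above background 3 were higher and 3 lower (28.6%). OAS3, a sensor of double-stranded RNA, was control apart at 83.7, 75.6 and 73 with the mimic, 152.6, 120.7 and 152.5 with the negative control and 85.6 and 90.3 in mock, and ISG15 was higher by 0.38 (adjusted p = 0.0453), a call lost in 5 of the 8 fits. Of 24 immediate early genes 3 were lower and 1 higher (16.7%). MCL1, an inhibitor of apoptosis, was control apart at 125.7, 126.8 and 114.5 with the mimic, 60.3, 66.1 and 70.5 with the negative control and 114.9 and 100.7 in mock. KLF4, a transcription factor of differentiated gut epithelium, was lower by 0.58 and lay on opposite sides of mock, at 14.7, 12.8 and 16.7 with the mimic, 51.9, 44.3 and 43.5 with the negative control and 25.6 and 27.9 in mock.

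In RNA metabolism, DEAD-box and DExH-box helicases had 8 of 35 higher (22.9%, beside 8.13% over all genes) and 2 lower, with a median of 0.08. DDX10 was control apart at 125.3, 121.4 and 112.5 with the mimic, 58.8, 54.2 and 42.8 with the negative control and 96 and 114.9 in mock, and DHX37 was lower by 0.61 and mimic apart. Of 21 tested genes of miRNA processing and silencing, 2 were called (9.52%, beside 16.8% over all genes). These were CNOT7, given above, and the decapping cofactor DCP1A, lower by 0.76 with mock arrays on different sides. Spliceosome, SR and hnRNP genes had 4 of 51 higher and 3 lower (13.7% called), with a median of 0.01. Of 13 histone genes 4 were higher (30.8%) and 0 lower. The 2 genes of the replacement histone H3.3 were among them, H3-3A by 0.59 and H3-3B by 0.49, the second mimic apart, and the linker histone H1-10 was higher by 0.43 and control apart.

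At the cell surface and in vesicles the share of called genes ranged widely about the 16.8% over all genes. Integrins and matricellular YAP targets had 4 of 16 lower and 2 higher (37.5% called), and 3 of these 6 were control apart, among them F3 (tissue factor) with 426.4, 356.6 and 435.4 with the mimic, 242.1, 225.5 and 227.9 with the negative control and 314.7 and 383.7 in mock, whereas ITGB5 was lower by 0.56 without a call against mock and lost its call in 5 of 8 fits with an array left out. Keratin and junction genes had 4 of 25 lower and 0 higher (16%). LAD1 (ladinin) was mimic apart at 18, 12.3 and 16.2 with the mimic, 49.3, 44.9 and 42.5 with the negative control and 35.6 and 49.2 in mock, and KRT80 was control apart at 20.9, 19.7 and 18.4 with the mimic, 53.3, 42.9 and 61.1 with the negative control and 19.4 and 19.5 in mock. Annexins and S100 proteins had 3 of 19 lower, ANXA5 the furthest, and 2 higher (26.3%). Lysosomal genes had 2 of 31 higher, ASAH1 (acid ceramidase) by 0.40 and GLA (alpha-galactosidase) by 0.32, both control apart, and 0 lower (6.45%). Palmitoyltransferases had 4 of 17 lower and 1 higher (29.4%), and ZDHHC12 was mimic apart at 17.5, 16.5 and 18.1 with the mimic, 51.1, 51.5 and 61.7 with the negative control and 37 and 45 in mock. The genes that the study named as targets were chosen in part on these samples, so their changes are not independent evidence. Of these 5 targets, 3 were lower (60%, beside 8.67% over all genes), and all 3 were mimic apart. The median log2 change of the 5 was -0.46 against the negative control and -0.61 against mock. Against the negative control it was -1.93 with the deposited log2 values and -0.0754 with the ring background. Targets that were not called were not shown to be unchanged. The study reported lower mRNA by qRT-PCR and lower protein for each target.

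**Figure D5:**
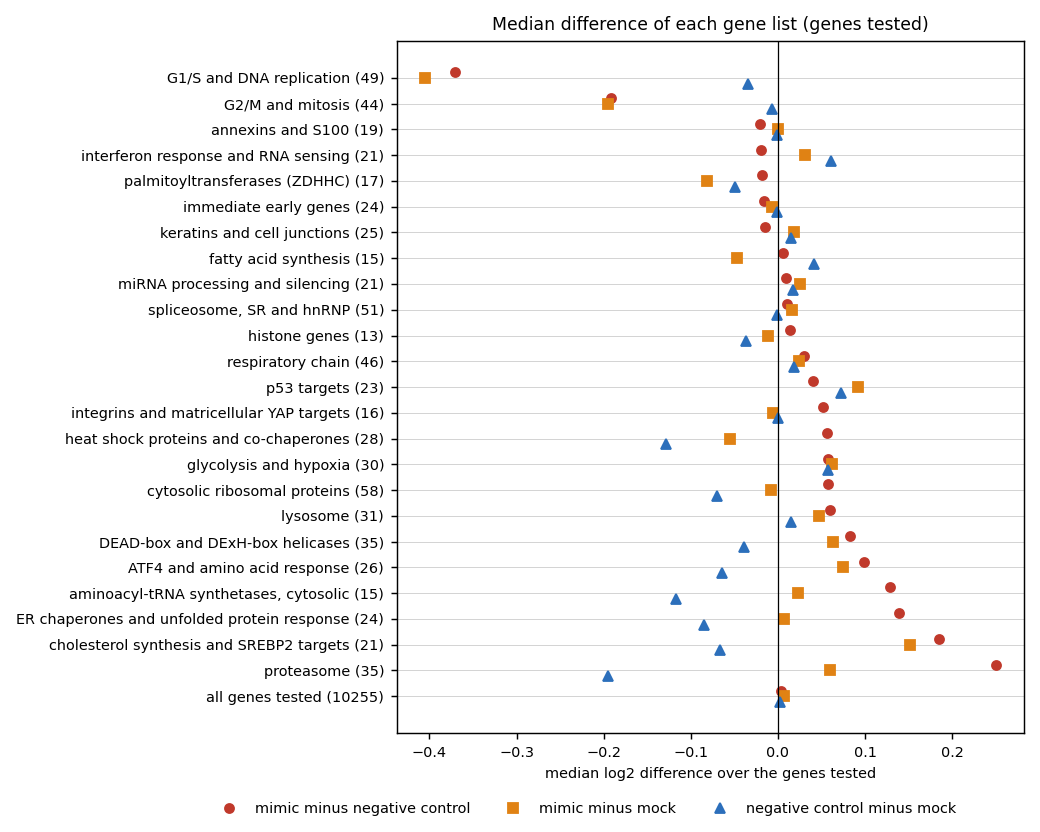
Median log2 difference of the tested genes of each list in 3 comparisons that share arrays: mimic minus negative control (circles), mimic minus mock (squares) and negative control minus mock (triangles), with the number of genes tested in parentheses. For G1/S and DNA replication the circle (-0.37) and the square (-0.40) lie together, and for the proteasome the square (0.06) lies near 0 while the circle (0.25) and the triangle (-0.20) lie on either side.

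Over the lists side by side, G1/S, G2/M and cholesterol synthesis kept most of their median against mock, at -0.40, -0.20 and 0.15. The proteasome, the endoplasmic reticulum chaperones and the aminoacyl-tRNA synthetases had medians of 0.25, 0.14 and 0.13 against the negative control and of 0.06, 0.01 and 0.02 against mock, with the negative control at -0.20, -0.08 and -0.12 against mock. The medians of all 10255 genes were 0.00, 0.01 and 0.00 for the mimic against the negative control, the mimic against mock and the negative control against mock. With the ring background the medians against the negative control were -0.175 for G1/S, 0.0237 for G2/M and 0.00233 for cholesterol synthesis. They were 0.0854 for the proteasome, 0.164 for the endoplasmic reticulum chaperones and 0.12 for the aminoacyl-tRNA synthetases. All these medians are descriptions and were not tested. Of the 60 list members named with a call against the negative control, 40 kept it without any 1 of the 8 arrays, and 14 lost it in 4 or more of the 8 fits. Those 14 were PCNA, GDF15, MDM2, CDKN1A, ISG15, FKBP4, HSPA4, BNIP3, ADM, COX5A, SDHD, RPS3A, WARS1 and ITGB5. The 32 genes named by rule kept it every time.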

How the data were processed

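Each deposited scanner file held, per the file headers, the spot intensity of 1 array as the median of its pixels at 635 nm, neither background-corrected nor normalized, in 27456 spots (24460 with a probe, 2680 blank, 316 other controls). The authors also deposited log2 values normalized by quantiles between arrays, with a background correction that no source used here gives, and these served as an alternative. Normexp on the blank spots, with 50 added as an offset, gave the background-corrected signals, and arrays were then normalized by quantiles. R 4.3.3 was used with limma 3.58.1 for the fits and jsonlite 2.0.0 for the labels. Leaving out 12 faulty probes kept 24448, and those above the 95th percentile of the blank spots on at least 2 arrays were tested. Group means of all 8 arrays were fitted with lmFit and eBayes (5 residual degrees of freedom, 2.36 prior), and p-values were adjusted by Benjamini-Hochberg over all tested probes. The number of arrays limits the precision.

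Probe names came from the annotation of the platform, brought to current symbols for 17228 probes as they stood and 2899 updated, with 99 older forms kept and 4222 probes without a symbol. A gene was represented by its brightest tested probe. Named genes were the 10 lowest and 6 highest that were mimic apart and the 8 highest and 8 lowest that were control apart, without the study's 5 targets and 42 genes of an earlier account of these data, and list members were named as examples among those with the largest changes. Members and lists were chosen with earlier results of these data known. The script of the fit was tested on simulated data. Promoters and miRNA sequences were those of RefSeq (GRCh38.p14). Alternatives changed the background, offset, scaling, filter, test and replicate block, used the authors' log2 values or the mimic and negative control arrays alone, and left out each array in turn. Seed matches in transcripts were not run.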

Additional observations from a re-analysis of the deposited data

How the results depend on the processing

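The count of 2016 called probes (1008 lower, 1008 higher; 360 mimic apart, 317 control apart) stayed within 1.5 times with the blank mean subtracted, an offset of 16 or the fit without mock, except that no marks exist without mock. Median centring gave 949 (320 lower, 629 higher; 85 mimic apart, 81 control apart), the authors' log2 values 929 (432 lower, 497 higher; 117 and 75), testing all probes without a filter 1250 (639 lower, 611 higher; 202 and 126) and the methods' t-test after Benjamini-Hochberg 818 (421 lower, 397 higher; 1 and 3), with 3645 probes at an unadjusted p below 0.05. An intensity trend gave 532 control apart probes. With the ring background all 5 counts were 0. Leaving out 1 array gave 1079 to 2212 calls, 550 to 1100 lower, 529 to 1113 higher, 111 to 272 mimic apart and 48 to 270 control apart. The counts of calls were lowest without negative control array 1 (1079) and array 3 (1221). Deviations from the group mean correlated weakly between mimic and negative control arrays of the same replicate number (0.1, 0.0249 and 0.0272). Whether samples of the same number shared handling was not tested. The replicate block gave 1846 calls, 182 mimic apart and 105 control apart. With the ring background the log2 change against the negative control turned for PSMG3 (0.32), CLK1 (-0.036), CYRIB (-0.13), MCFD2 (-0.42), PLEKHG3 (0.012), RPA1 (-0.16), PTTG1 (0.19), PIMREG (0.046), CDKN1A (-0.28), FKBP4 (0.66), SDHD (-0.013), KRT80 (0.023) and KLF4 (0.044), that of RSRP1 against mock was -0.00379, and those of the negative control against mock were 0.72 for MCFD2 and -0.0621 for PDLIM2. No other setting turned a gene named here. Of the 32 genes named by rule, 30 kept their call against the negative control with median centring and 32 with the authors' values. Of the 60 other genes named, 34 and 32 kept it. The calls against mock stayed for 8 and 9 of the 16 mimic apart genes and for 8 and 8 of the 16 control apart genes. The cause was not tested. Seed matches were not run. Signals near the blank spots limit dim genes.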
